A study of Mus musculus with 18 samples.

Results

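The liver makes most of the circulating clotting and complement proteins, and a fixed list of 42 genes for them was followed in mouse livers labelled HPNWT or EGFP. The list holds 23 genes of coagulation and fibrinolysis and 19 of complement. A gene was taken as found when a transcript cluster, the array's unit for one transcribed locus, carried exactly its symbol, and the cluster with the highest mean over 18 arrays was used. By that rule 40 of the 42 were found among 40161 clusters with a symbol. Klkb1, plasma prekallikrein, was left out because the cluster that carried its symbol also carried Cyp4v3. No cluster carried exactly the symbol C1s, which RefSeq lists as C1s1. C1s1 was measured and is counted among the further complement genes below.

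Clotting runs as a cascade of plasma proteases, each of which cuts and activates the next, until thrombin turns fibrinogen into fibrin. Plasmin dissolves that fibrin, and serpins restrain the proteases of both processes. Complement is a second cascade, started by antibody through C1, by sugars through mannose-binding lectins, or on surfaces through factor B. All 3 routes meet at C3 and end in a membrane pore built from C5 to C9. Hepsin is a serine protease on the hepatocyte surface, and purified hepsin has been reported to activate factor VII.

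The study transduced livers of adult male mice with adeno-associated virus (AAV) for liver-specific overexpression of hepsin, and measured RNA on Affymetrix MTA 1.0 arrays, 1 per animal. The groups were HPNWT at day 1, HPNWT at day 2 and HPNWT at day 4, and EGFP, the enhanced green fluorescent protein control, at the same 3 days, with 3 arrays in each of the 6 groups. The labels do not spell out HPNWT, and the event from which days were counted is not given in the sources used here. All groups, EGFP included, received AAV.

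Values are the authors' log2 signals, so a difference of 1 is a doubling of signal. Members were not ranked by level because each probe set responds differently. Across genes, levels served only to mark bright and background clusters and to sum cell type markers. Correlations between arrays ran from 0.982 to 0.998. Hpn itself, the gene encoding hepsin, read 8.10 to 8.62 in HPNWT livers and 8.09 to 8.42 in EGFP livers, with differences of -0.06, -0.08 and 0.11 at days 1, 2 and 4 (SE 0.12, limma adjusted p = 0.894, 0.731 and 0.809). The labels are therefore used as given, without a check from the transgene, whose sequence the array's Hpn probes may not cover. The median signal of 5222 negative-control probe sets was lower in HPNWT livers at day 2, 3.04 ± 0.0526 against 3.41 ± 0.139 in EGFP livers (SD, n = 3 each). At day 1 it was 3.04 ± 0.105 in HPNWT livers and 3.20 ± 0.0995 in EGFP livers, and at day 4 it was 3.06 ± 0.160 in HPNWT livers and 3.18 ± 0.107 in EGFP livers. HPNWT day 4 replicate 3 stood apart, with a summed sinusoidal endothelial marker level of 10.96 against 10.29 and 10.34 in the other HPNWT arrays of that day.

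Promoter sequences are shown for the members that differed at all 3 days, 3 of them higher and 1 lower in HPNWT livers, because they carry the most repeated differences of the list. Each runs 5′ to 3′ on the gene's strand, from 250 bases before the transcription start to 50 after it, in RefSeq's GRCm38.p6 annotation. F11 lies at chr8:45261982-45262281 (minus strand), Serpinf2 at chr11:75439452-75439751 (minus strand), C4bp at chr1:130661569-130661868 (minus strand) and Mbl1 at chr14:41151206-41151505 (plus strand). Capitals mark a match to one of 4 short motifs of liver or acute phase transcription factors described after the sequences.
F11: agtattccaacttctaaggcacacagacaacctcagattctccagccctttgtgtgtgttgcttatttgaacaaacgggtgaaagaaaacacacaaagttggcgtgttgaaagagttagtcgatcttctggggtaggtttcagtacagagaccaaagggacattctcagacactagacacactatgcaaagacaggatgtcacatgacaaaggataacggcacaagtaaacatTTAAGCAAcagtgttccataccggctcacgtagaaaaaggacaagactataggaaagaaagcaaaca
Serpinf2: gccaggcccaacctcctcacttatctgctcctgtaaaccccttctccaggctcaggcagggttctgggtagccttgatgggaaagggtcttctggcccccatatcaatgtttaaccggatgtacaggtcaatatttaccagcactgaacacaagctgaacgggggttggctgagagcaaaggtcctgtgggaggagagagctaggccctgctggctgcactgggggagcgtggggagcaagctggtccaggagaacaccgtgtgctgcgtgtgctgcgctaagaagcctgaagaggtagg
C4bp: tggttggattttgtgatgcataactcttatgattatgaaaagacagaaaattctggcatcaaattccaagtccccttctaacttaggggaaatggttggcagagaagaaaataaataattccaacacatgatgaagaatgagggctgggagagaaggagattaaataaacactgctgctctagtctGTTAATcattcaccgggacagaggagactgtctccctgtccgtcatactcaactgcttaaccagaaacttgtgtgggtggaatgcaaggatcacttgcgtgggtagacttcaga
Mbl1: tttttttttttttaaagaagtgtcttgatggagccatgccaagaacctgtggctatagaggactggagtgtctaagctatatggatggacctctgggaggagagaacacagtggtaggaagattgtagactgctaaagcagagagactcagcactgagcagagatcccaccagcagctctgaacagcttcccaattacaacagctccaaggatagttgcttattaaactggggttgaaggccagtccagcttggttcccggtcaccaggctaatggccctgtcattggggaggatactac

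The motifs were searched on both strands, and none of them overlapped within the 4 windows shown. They were GTTAAT for HNF1, AAAGTCC for HNF4, TTGCNNAA for C/EBP and TTCNNNGAA for STAT, where N is any base. F11 held 1 C/EBP match, whose leftmost base lay at position -17 from the start. C4bp held 1 HNF1 match at position -64. The windows of Serpinf2 and Mbl1 held none of these letters. RefSeq windows were matched for 31 of the 40 measured members. HNF1 letters were present in 11 of the 33 member windows (33.3%), against 7.1% of all 32851 windows. C/EBP letters were present in 9 (27.3% against 10.8%), STAT letters in 8 (24.2% against 8.3%) and HNF4 letters in 3 (9.09% against 4.21%). These are counts of letters, and no binding was measured.

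In HPNWT livers the coagulation genes that passed the limma test were higher, and the complement genes that passed it split. The regulators C4bp and, at day 2 alone, Cfi were higher. C2, the lectins Mbl1 and Mbl2 and the terminal components C8b and C9 were lower. At day 1, 6 of 40 members were called, meaning an adjusted p under 0.05 in limma over all 40161 clusters, against 4.59% of all clusters. F11, Serpinf2 and C4bp were higher, against 2.97% of all clusters higher, and C2, Mbl1 and Mbl2 were lower, against 1.62%. At day 2, 11 members were called (5.67% of all clusters). The 8 higher members were F5, F10, F11, Serpind1, Serpinf2, Kng1, Cfi and C4bp (2.16% of all clusters), and the 3 lower ones were C8b, Mbl1 and Mbl2 (3.51%). At day 4, 8 members were called (2.21% of all clusters), 5 higher (F10, F11, Serpind1, Serpinf2 and C4bp; 1.54%) and 3 lower (C8b, C9 and Mbl1; 0.67%). Without HPNWT day 4 replicate 3 there were also 8 calls at day 4, with Kng1 called (0.37, adjusted p = 0.00968) and C9 not. In a fit of the 6 arrays of day 4 alone, Mbl1 was the sole call, with 0.371% of all clusters called. F11 and Serpinf2 then had limma adjusted p values of 0.0532 and 0.0516.

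These shares of the list were 15%, 27.5% and 20% at days 1, 2 and 4. Bright clusters were called more often than dim ones, and 35 of the 40 members had a mean above 9. Among all 1757 clusters with a mean above 9, a level picked after the members' levels were seen, 11.2%, 20.4% and 6.26% were called at days 1, 2 and 4. At each day the list's share was thus above both, and closer to that of bright clusters than to that of all clusters. The median difference of the members was -0.02, 0.04 and 0.01, against 0.01, 0.05 and 0.01 over all clusters. At an unadjusted p under 0.05, 10, 16 and 15 members (25%, 40% and 37.5%) passed at days 1, 2 and 4, against 6326, 7993 and 4904 of all clusters (15.8%, 19.9% and 12.2%) and 659, 845 and 453 of the 1757 bright ones (37.5%, 48.1% and 25.8%). The HPNWT and EGFP arrays did not overlap for 14 members at day 1 (18.3% of all clusters), 21 at day 2 (34.3%) and 15 at day 4 (15.6%). Of these, 5, 15 and 10 were higher in HPNWT livers (10%, 21.2% and 9.91% of all clusters) and 9, 6 and 5 were lower (8.21%, 13.1% and 5.7%). The list's own shares without overlap were 35%, 52.5% and 37.5%, against 34.9%, 56.2% and 27.2% of the bright clusters.

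Of the 40 members, 13 were called at 1 day or more and 27 at none. F11, Serpinf2 and C4bp were called higher at all 3 days, and Mbl1 was called lower at all 3. F10, Serpind1, C8b and Mbl2 were called at 2 days, and F5, Kng1, C2, C9 and Cfi at 1. No member was called in opposite directions at different days. The 22 measured coagulation and fibrinolysis genes gave 2, 6 and 4 higher calls and 0 lower calls at days 1, 2 and 4. The 18 measured complement genes gave 1, 2 and 1 higher calls and 3 lower calls at each day. Over all clusters 2.97%, 2.16% and 1.54% were called higher and 1.62%, 3.51% and 0.67% lower at days 1, 2 and 4. Bright clusters, those with a mean above 9, were called lower far more often than that at day 2. At that day 284 of the 1757 bright clusters were called lower and 75 higher. The 3 lower calls among 18 complement genes at day 2 are close to that bright share. The 6 higher calls among 22 coagulation genes are above it. At days 1 and 4 fewer bright clusters were called lower than at day 2. Shares of all clusters called at several days, or at any, were not counted. The median difference of the coagulation genes was 0.03, 0.12 and 0.13, and that of the complement genes was -0.17, -0.16 and -0.13.

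**Figure D1:**
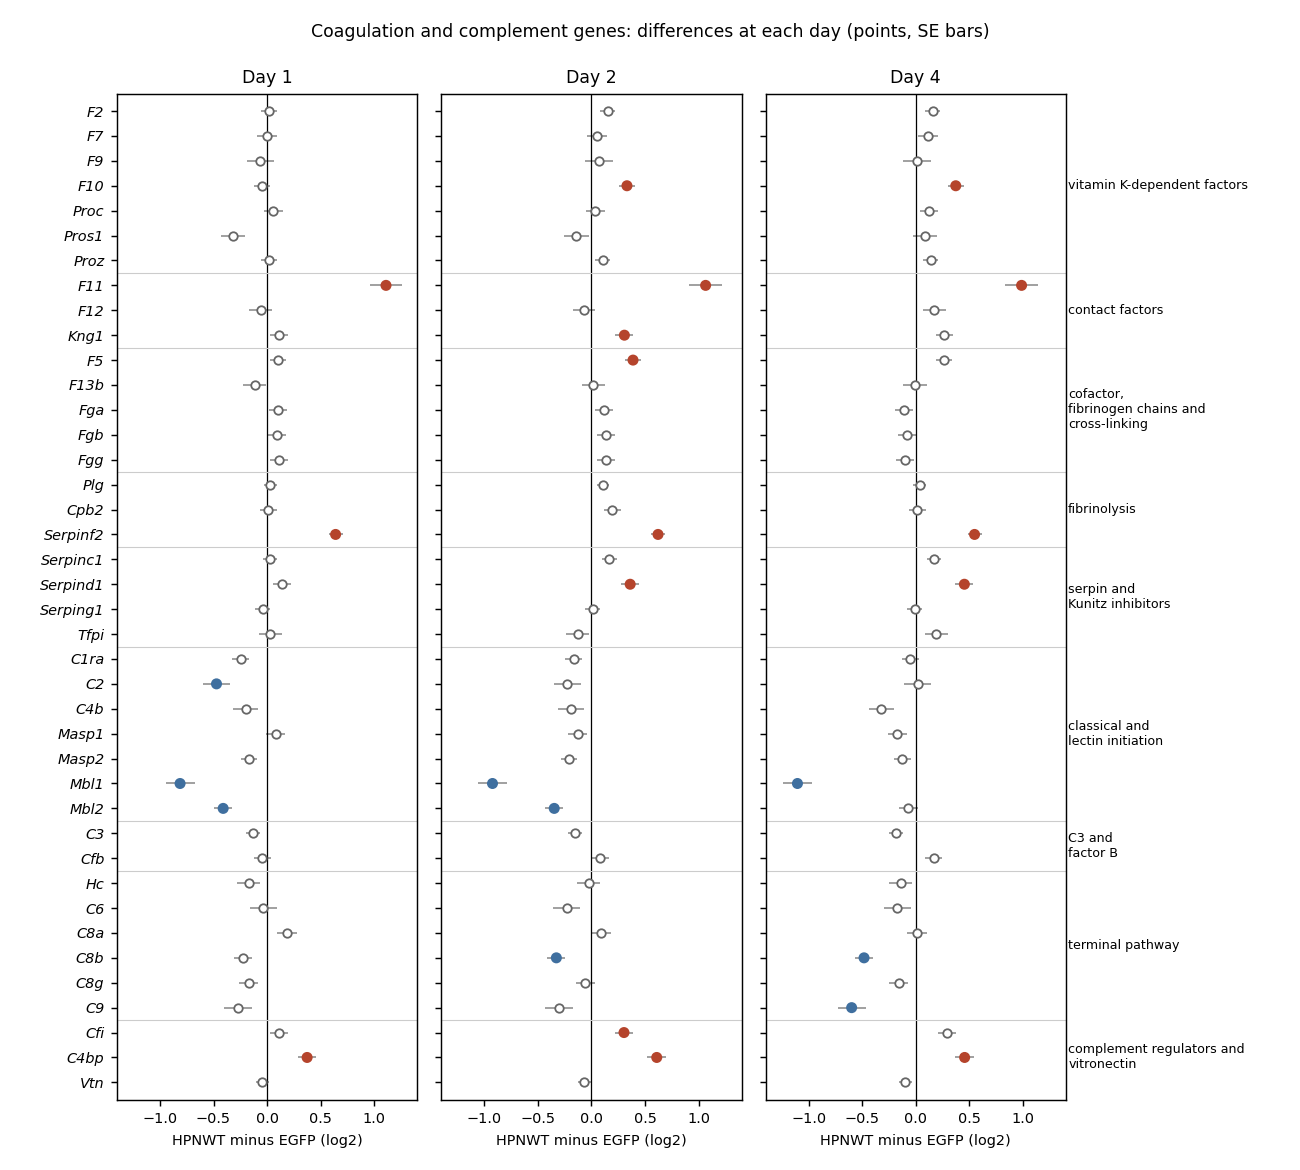
Difference in log2 signal, HPNWT minus EGFP, for each of the 40 measured members at days 1, 2 and 4, grouped by role, with standard errors from the limma fit, filled points for called differences and open points for the others. F11 lies near 1 at each day, Mbl1 lies at -0.81, -0.92 and -1.10, and most other members lie close to 0.

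Since whole livers were measured, fewer cells of a type and less RNA per cell cannot be told apart in any of these differences. The summed level of 7 hepatocyte markers was slightly lower in HPNWT livers, at 14.81 to 14.85 against 14.89 to 14.96 in EGFP livers at day 2 and 14.70 to 14.81 in HPNWT livers against 14.83 to 14.91 in EGFP livers at day 4, without overlap at either day. At day 1 the ranges were 14.68 to 14.92 in HPNWT livers and 14.80 to 14.94 in EGFP livers. Of these markers 3 had positive and 4 had negative differences at each day, and such a sum weighs the brightest markers most. Apoa1 was called higher at days 1 and 2 and Cyp2e1 lower at days 2 and 4. None of the 9 Kupffer cell and macrophage markers or the 7 sinusoidal endothelial markers was called at any day, although 9, 8 and 5 of the Kupffer markers had negative differences at days 1, 2 and 4. Of 7 stellate cell markers Reln was called higher at day 2 (0.48, adjusted p = 0.0353) and day 4 (0.74, adjusted p = 0.00351), and of 6 lymphocyte markers Cd4 was called lower at day 1 (-0.45, adjusted p = 0.0231). Alas2, 1 of 2 measured erythroid markers, was called lower at day 4 (-0.60, adjusted p = 0.00595), and the erythroid sum was then 7.99 to 8.03 in HPNWT livers against 8.48 to 8.77 in EGFP livers. At day 1 that sum was 8.17 to 8.40 in HPNWT livers and 8.45 to 8.67 in EGFP livers, also without overlap, and at day 2 it was 8.15 to 8.28 in HPNWT livers and 8.27 to 8.75 in EGFP livers. The 5 cholangiocyte markers summed to 8.23 to 8.55 in HPNWT livers and 8.01 to 8.34 in EGFP livers at day 1, and to 8.50 to 8.67 in HPNWT livers and 7.89 to 8.59 in EGFP livers at day 2. At day 4 they summed to 8.87 to 9.33 in HPNWT livers and 8.24 to 8.58 in EGFP livers, with 0, 1 and 0 of the 5 called at days 1, 2 and 4. The part of these markers in the members' differences was not tested.

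Among the contact factors, which start clotting on charged surfaces, F11 had the largest difference of the list at day 1 and day 2. Factor XI is the zymogen that activates factor IX. At day 1, F11 read 10.28, 10.39 and 10.11 in HPNWT livers against 8.84, 9.23 and 9.40 in EGFP livers. At day 2 it read 10.34, 10.38 and 10.39 in HPNWT livers against 9.52, 9.08 and 9.32 in EGFP livers. At day 4 it read 10.20, 10.19 and 9.76 in HPNWT livers against 8.90, 9.04 and 9.25 in EGFP livers. Every HPNWT array was above every EGFP array, across days as well as within them, although HPNWT day 4 replicate 3 was the lowest of the HPNWT arrays. The difference was 1.11 at day 1, 1.06 at day 2 and 0.99 at day 4 (SE 0.15), which is 2.16-, 2.09- and 1.98-fold (limma adjusted p = 0.000473, 0.000738 and 0.00146). Without each array in turn it stayed past the threshold at all 3 days.

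Kng1 encodes kininogen, the carrier of prekallikrein and factor XI and the source of bradykinin. It was higher in HPNWT livers at day 2 by 0.31 (SE 0.083, limma adjusted p = 0.0390), a call that was lost without any 1 of the 6 arrays of that day (adjusted p = 0.0831 to 0.139), and without EGFP day 1 replicate 2 or EGFP day 4 replicate 1 (adjusted p = 0.0534 and 0.0504). It was also lost with arrays centred on their medians (0.26, adjusted p = 0.0847). Its difference was 0.11 at day 1 and 0.27 at day 4 (adjusted p = 0.624 and 0.131). F12, the contact protease that activates factor XI, was not called at any day, with differences of -0.06, -0.07 and 0.17.

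Of the 7 vitamin K-dependent factors, F10 was called, and F2, F7, F9, Proc, Pros1 and Proz were not. Factor X is the protease that, with factor V as its cofactor, converts prothrombin to thrombin. At day 1 F10 read 9.44, 9.34 and 9.30 in HPNWT livers against 9.34, 9.42 and 9.46 in EGFP livers, an overlap. Its day 2 values were 9.71, 9.70 and 9.68 in HPNWT livers against 9.33, 9.33 and 9.44 in EGFP livers, and at day 4 it read 9.69, 9.65 and 9.81 in HPNWT livers against 9.42, 9.43 and 9.19 in EGFP livers. The groups were apart at days 2 and 4, with differences of 0.33 and 0.37 (SE 0.074, limma adjusted p = 0.0145 and 0.0104), against -0.05 at day 1 (adjusted p = 0.856). The day 2 call was lost without HPNWT replicate 2 or EGFP replicate 1 or 2 of that day (adjusted p = 0.0609, 0.0502 and 0.0751), and the day 4 call without EGFP replicate 3 (adjusted p = 0.0593). With arrays centred on their medians neither call of F10 passed (0.28 at day 2, adjusted p = 0.148, and 0.40 at day 4, adjusted p = 0.0686). F7, the factor that purified hepsin has been reported to activate, differed by 0.00, 0.05 and 0.12 at days 1, 2 and 4 (adjusted p = 0.993, 0.788 and 0.714).

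F2 encodes prothrombin, the precursor of thrombin. It read 11.24, 11.05 and 11.20 in HPNWT livers against 11.18, 11.10 and 11.16 in EGFP livers at day 1. Its day 2 values were 11.17, 11.22 and 11.21 in HPNWT livers against 11.03, 11.02 and 11.10 in EGFP livers, without overlap, and at day 4 it read 11.23, 11.20 and 11.32 in HPNWT livers against 11.21, 11.12 and 10.95 in EGFP livers, with overlap. The differences of 0.02, 0.15 and 0.16 did not pass the test (adjusted p = 0.958, 0.260 and 0.392). Pros1, the cofactor of activated protein C, differed by -0.32, -0.14 and 0.09, and its groups were separate at day 1 without a call (adjusted p = 0.145). Proc and F9 differed by at most 0.12 in size at any day.

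The cofactor F5 was called at day 2. Factor V joins activated factor X on membranes to form prothrombinase. It read 10.80, 10.83 and 10.85 in HPNWT livers against 10.46, 10.37 and 10.50 in EGFP livers at day 2, a difference of 0.39 (SE 0.074, 1.31-fold, limma adjusted p = 0.00681). At day 1 it read 10.59, 10.61 and 10.72 in HPNWT livers against 10.40, 10.58 and 10.62 in EGFP livers, and at day 4 it read 10.77, 10.73 and 10.65 in HPNWT livers against 10.54, 10.49 and 10.34 in EGFP livers. The groups overlapped at day 1 and were apart at day 4, where the difference of 0.26 was not called (adjusted p = 0.0858).

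The 3 fibrinogen chains, the substrate of thrombin, moved by little and by similar amounts. Fgb, the beta chain, read 12.20, 12.38 and 12.53 in HPNWT livers against 12.28, 12.28 and 12.28 in EGFP livers at day 1. Readings at day 2 were 12.40, 12.32 and 12.47 in HPNWT livers against 12.26, 12.22 and 12.30 in EGFP livers, and at day 4 it read 12.30, 12.31 and 12.07 in HPNWT livers against 12.28, 12.32 and 12.33 in EGFP livers. The groups were apart at day 2 and overlapped at days 1 and 4. Across days 1, 2 and 4, Fga differed by 0.10, 0.11 and -0.11, Fgb by 0.09, 0.13 and -0.08, and Fgg by 0.11, 0.14 and -0.10, none of them called. F13b, the carrier subunit of the fibrin cross-linking enzyme, differed by -0.12, 0.02 and -0.01.

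In fibrinolysis, Serpinf2 was higher in HPNWT livers at all 3 days, and Plg, the plasminogen gene it opposes, was not called at any. Serpinf2 encodes alpha-2-antiplasmin, the main plasma inhibitor of plasmin. At day 1 it read 11.72, 11.55 and 11.56 in HPNWT livers against 10.97, 10.93 and 11.01 in EGFP livers. At day 2 it read 11.49, 11.42 and 11.45 in HPNWT livers against 10.86, 10.78 and 10.86 in EGFP livers, and at day 4 it read 11.45, 11.48 and 11.50 in HPNWT livers against 11.01, 10.95 and 10.82 in EGFP livers. All HPNWT arrays were above all EGFP arrays, with a gap wider than the spread within either group. The differences of 0.64, 0.62 and 0.55 (SE 0.065) are 1.56-, 1.54- and 1.46-fold (limma adjusted p = 4.1e-05, 5.4e-05 and 0.000163). Plg differed by 0.03, 0.11 and 0.04, and Cpb2, the carboxypeptidase that shields fibrin from plasmin, by 0.01, 0.19 and 0.01.

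Among the other coagulation inhibitors, Serpind1 was called at days 2 and 4. It encodes heparin cofactor II, a serpin that inhibits thrombin. At day 2 it read 11.16, 11.18 and 11.21 in HPNWT livers against 10.92, 10.76 and 10.79 in EGFP livers, and at day 4 it read 11.29, 11.35 and 11.16 in HPNWT livers against 10.82, 10.89 and 10.74 in EGFP livers. The differences were 0.36 and 0.45 (SE 0.083, limma adjusted p = 0.0180 and 0.00607). The day 2 call was lost without HPNWT replicate 2 or 3 or EGFP replicate 2 or 3 of that day (adjusted p = 0.0652, 0.0581, 0.0929 and 0.0659), and with arrays centred on their medians (0.31, adjusted p = 0.0864). At day 1 it read 11.02, 11.05 and 11 in HPNWT livers against 10.67, 10.98 and 10.99 in EGFP livers, groups that were barely apart, with a difference of 0.14 (adjusted p = 0.475). Serpinc1, which encodes antithrombin, differed by 0.03, 0.17 and 0.17, and Serping1, the C1 and contact inhibitor, by -0.04, 0.01 and -0.01, with no call. Tfpi, the tissue factor pathway inhibitor, had a mean of 4.31, under the 6.16 that marks the 95th percentile of negative controls, so its signal could not be told from background.

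**Figure D2:**
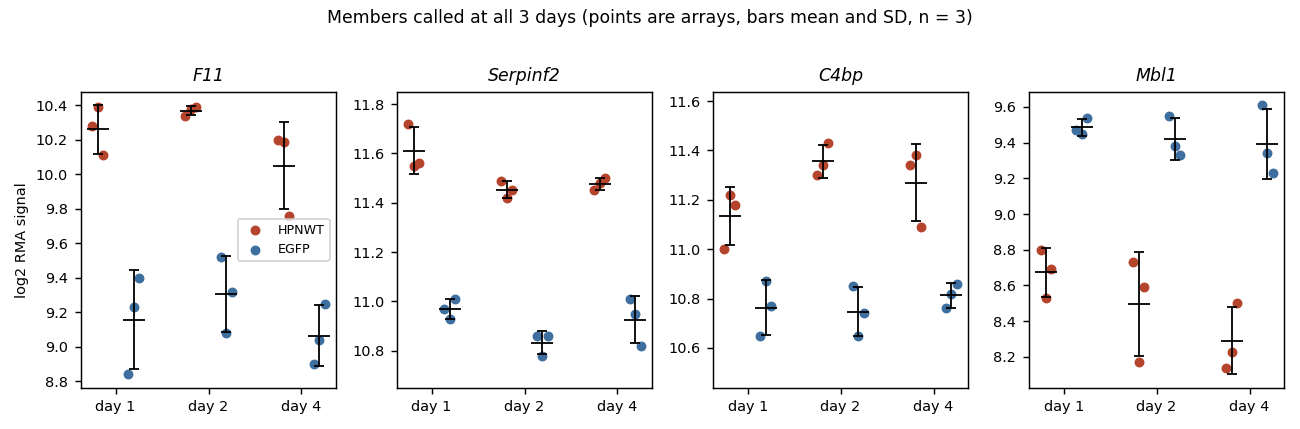
Log2 signal of F11, Serpinf2, C4bp and Mbl1 on each of the 18 arrays, HPNWT left of EGFP at each day, with bars for the group mean and SD. All HPNWT points of F11, Serpinf2 and C4bp lie above the EGFP points of the same day, and those of Mbl1 lie below them.

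The lectin arm of complement held the most negative difference of the list. Mbl1 and Mbl2 encode the mouse mannose-binding lectins A and C, which bind microbial sugars and activate C4 and C2 through the MASP proteases. At day 1 Mbl1 read 8.80, 8.53 and 8.69 in HPNWT livers against 9.47, 9.45 and 9.54 in EGFP livers. At day 2 it read 8.73, 8.17 and 8.59 in HPNWT livers against 9.55, 9.38 and 9.33 in EGFP livers, and at day 4 it read 8.14, 8.23 and 8.50 in HPNWT livers against 9.61, 9.34 and 9.23 in EGFP livers. Every HPNWT array was below every EGFP array. The differences of -0.81, -0.92 and -1.10 (SE 0.13) put the HPNWT signal under the EGFP signal at each day (limma adjusted p = 0.00228, 0.00094 and 0.000212).

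Mbl2 was lower in HPNWT livers than in EGFP livers at days 1 and 2. It read 10.68, 10.43 and 10.51 in HPNWT livers against 11.11, 10.84 and 10.89 in EGFP livers at day 1, and 10.85, 10.77 and 10.90 in HPNWT livers against 11.17, 11.08 and 11.31 in EGFP livers at day 2. At day 4 it read 11.18, 11.28 and 11.24 in HPNWT livers against 11.27, 11.37 and 11.26 in EGFP livers, and the groups overlapped. The differences were -0.41, -0.35 and -0.07 (SE 0.086, limma adjusted p = 0.0109, 0.0255 and 0.838). After repeated quantile normalization the calls at days 1 and 2 were lost, with differences of -0.31 and -0.18 (adjusted p = 0.0543 and 0.275). The day 1 call was also lost without HPNWT replicate 2 or EGFP replicate 1 of that day (adjusted p = 0.0676 and 0.0540), and the day 2 call without HPNWT replicate 1 or 2 or EGFP replicate 1 or 3 (adjusted p = 0.0658, 0.116, 0.0587 and 0.116). Masp1 and Masp2, the proteases that ride on these lectins, were not called, with differences of 0.08, -0.13 and -0.17 for Masp1 and -0.17, -0.21 and -0.13 for Masp2.

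C2, the protease of the classical and lectin C3 convertase, was lower at day 1, at 8.24, 8.14 and 8.36 in HPNWT livers against 8.60, 8.73 and 8.84 in EGFP livers. The difference was -0.47 (SE 0.12, limma adjusted p = 0.0374), and it was lost without either HPNWT replicate 1 or 2 or EGFP replicate 2 or 3 of that day (adjusted p = 0.112, 0.159, 0.113 and 0.143), and with arrays centred on their medians (adjusted p = 0.142). A dimmer C2 cluster exists, and the mean of both clusters differed by -0.26 (adjusted p = 0.118). At days 2 and 4 the C2 groups overlapped, with differences of -0.22 and 0.02. C4b differed by -0.20, -0.19 and -0.32 without a call, and its signal may include that of its close paralog C4a. C1ra, a protease of the C1 complex, differed by -0.24, -0.17 and -0.05.

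C3, on which all routes converge, was lower in HPNWT livers by a small margin that did not pass the test. It read 12.16, 12.17 and 12.33 in HPNWT livers against 12.36, 12.35 and 12.34 in EGFP livers at day 1. Readings at day 2 were 12.19, 12.13 and 12.30 in HPNWT livers against 12.36, 12.34 and 12.39 in EGFP livers, and at day 4 it read 12.09, 12.10 and 12.23 in HPNWT livers against 12.29, 12.39 and 12.29 in EGFP livers. The groups did not overlap at any day, yet the differences of -0.13, -0.16 and -0.19 had adjusted p values of 0.377, 0.203 and 0.216. Such separation at any 1 day was common among all clusters, as the shares above show. C3, C8b and Mbl1 were the 3 members whose HPNWT arrays were all lower at each day. Cfb, the protease of the alternative pathway, differed by -0.05, 0.08 and 0.17.

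In the terminal pathway, C8b and C9 were lower in HPNWT livers at day 4, and C8b also at day 2. C8b encodes the beta chain of C8, which docks to C5b, and C9 is the subunit that polymerises into the pore. C8b read 10.59, 10.48 and 10.51 in HPNWT livers against 11.17, 11.02 and 10.85 in EGFP livers at day 4, a difference of -0.48 (SE 0.084, limma adjusted p = 0.00426). Its differences were -0.22 at day 1 and -0.33 at day 2 (adjusted p = 0.177 and 0.0303), with no overlap between groups at any of the 3 days. The day 2 call of C8b was lost under repeated quantile normalization (adjusted p = 0.120), and without HPNWT replicate 1 or 2 or any EGFP array of that day (adjusted p = 0.0717, 0.161, 0.0938, 0.0682 and 0.101).

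At day 4 C9 read 9.96, 9.85 and 9.67 in HPNWT livers against 10.54, 10.40 and 10.33 in EGFP livers. The difference was -0.60 (SE 0.13, limma adjusted p = 0.0215), and -0.27 and -0.31 at days 1 and 2 without a call. The lowest of these arrays was HPNWT day 4 replicate 3, the one that stood apart, and without it C9 differed by -0.52 and was not called (adjusted p = 0.0738). The call was also lost without HPNWT replicate 2 or EGFP replicate 1 or 2 of that day (adjusted p = 0.0606, 0.111 and 0.0640).

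Hc encodes C5, whose fragment C5b starts pore assembly. It read 10.91, 10.99 and 11.23 in HPNWT livers against 11.15, 11.31 and 11.18 in EGFP livers at day 1. On the day 2 arrays it read 11.27, 11.11 and 11.32 in HPNWT livers against 11.42, 11.22 and 11.14 in EGFP livers, and at day 4 it read 11.16, 11.17 and 10.83 in HPNWT livers against 11.21, 11.26 and 11.12 in EGFP livers. The groups overlapped at every day, with differences of -0.17, -0.02 and -0.14. C6, which joins C5b next, and C8g, the gamma chain of C8, differed by at most 0.23 in size and were not called. C8a, the pore-inserting alpha chain, differed by 0.18, 0.09 and 0.01.

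**Figure D3:**
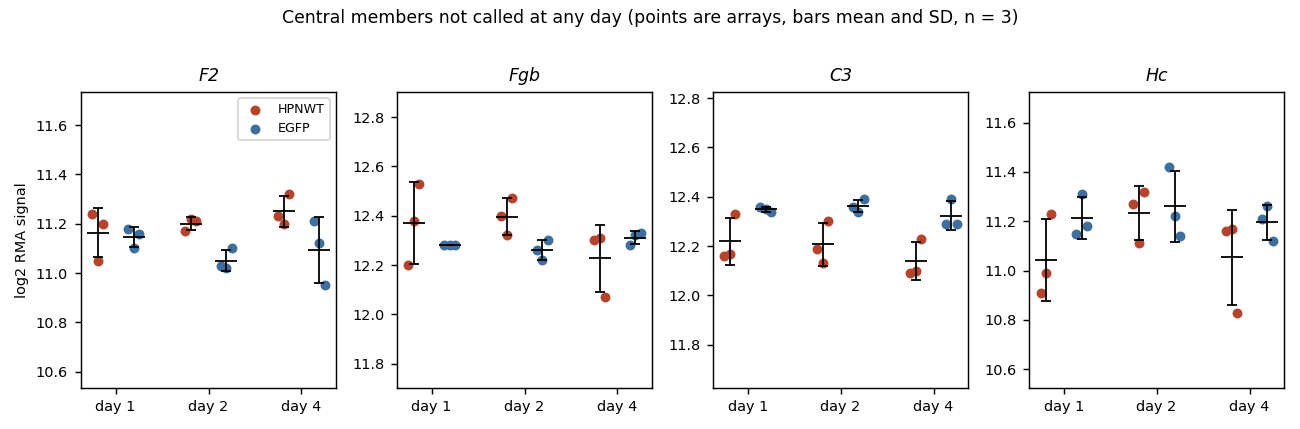
Log2 signal of F2, Fgb, C3 and Hc on each array, HPNWT left of EGFP at each day, with bars for the group mean and SD. None of the 4 genes was called, and the HPNWT points of C3 lie below its EGFP points at each day by 0.13 to 0.19 on average.

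Of the regulators that act in plasma, C4bp was called higher in HPNWT livers at each day and Cfi at day 2 alone. C4bp encodes the C4b-binding protein, the cofactor with which factor I degrades C4b. It read 11, 11.22 and 11.18 in HPNWT livers against 10.65, 10.87 and 10.77 in EGFP livers at day 1. On the day 2 arrays it read 11.30, 11.34 and 11.43 in HPNWT livers against 10.85, 10.65 and 10.74 in EGFP livers, and at day 4 it read 11.34, 11.38 and 11.09 in HPNWT livers against 10.76, 10.82 and 10.86 in EGFP livers. The groups were apart at each day, with the widest gap at day 2. The differences were 0.37, 0.61 and 0.45 (SE 0.087, limma adjusted p = 0.0217, 0.000834 and 0.00870), and the day 1 call was lost without HPNWT replicate 2 or EGFP replicate 1 or 3 of that day (adjusted p = 0.108, 0.0939 and 0.0640). The day 4 call was lost without HPNWT replicate 2 (adjusted p = 0.0503).

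Cfi, the gene of factor I, was higher by 0.30 at day 2 (SE 0.082, limma adjusted p = 0.0394), a call that was lost without any 1 array of that day (adjusted p = 0.0638 to 0.151) and with arrays centred on their medians (0.25, adjusted p = 0.169). It differed by 0.11 at day 1 and by 0.29 at day 4 (adjusted p = 0.617 and 0.0899). Vtn, vitronectin, which binds the nascent pore and also plasminogen activator inhibitor, differed by -0.04, -0.07 and -0.10.

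**Figure D4:**
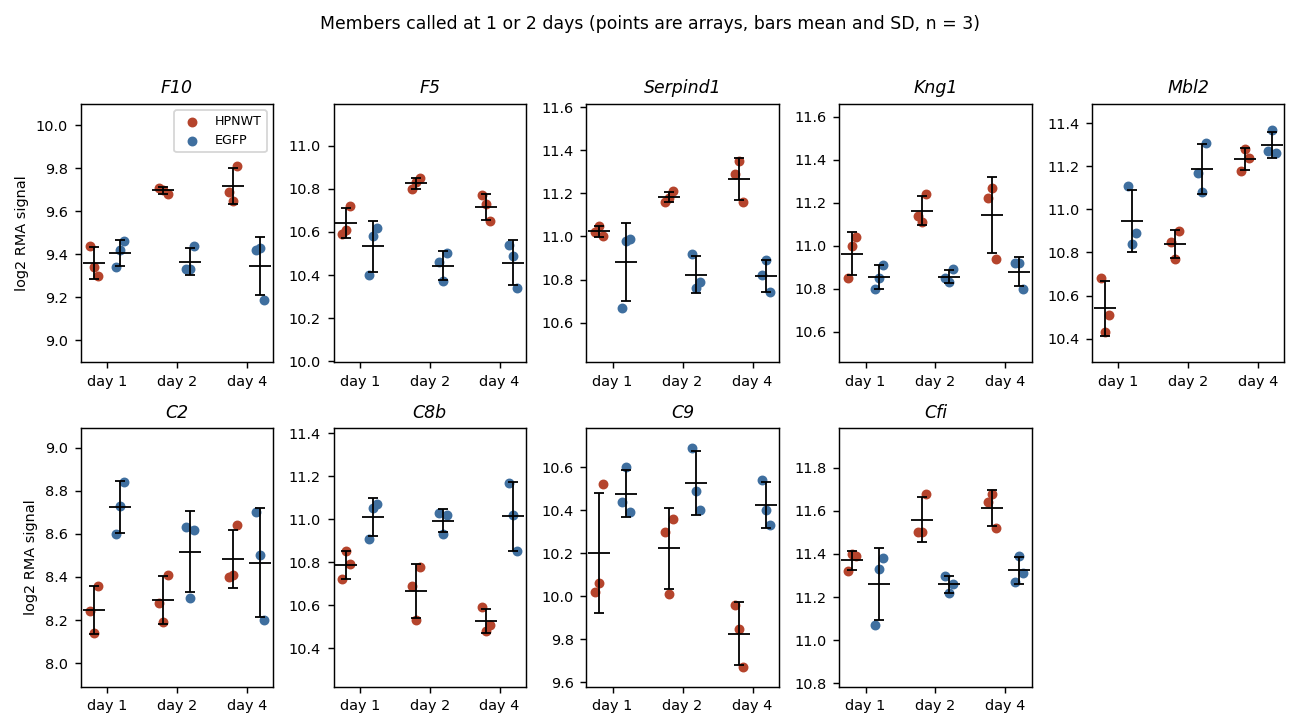
Log2 signal of the members called at 1 or 2 days, on each array, HPNWT left of EGFP at each day, with bars for the group mean and SD. F10 and C9 separate at days 2 and 4, Mbl2 at days 1 and 2, and Serpind1 at all 3 days, barely so at day 1.

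At day 2 the negative-control medians did not overlap, at 2.99 to 3.09 in HPNWT livers against 3.27 to 3.55 in EGFP livers. Used as a covariate, they follow the group so closely that background and group can hardly be told apart. Calls lost with this covariate therefore do not show what the differences came from. With each array's negative-control median as a covariate, Serpinf2 was the sole member called at that day. F11 then differed by 0.75 (adjusted p = 0.242), C4bp by 0.46 (0.238) and Mbl1 by -0.71 (0.243). The differences of F5, F10 and Mbl2 were wider with the covariate, at 0.46, 0.47 and -0.42, but were not called either (adjusted p = 0.149, 0.0975 and 0.315). Of all clusters 87 (0.217%) passed, against 2277 (5.67%) without the covariate. At days 1 and 4 the same covariate left 4 and 7 members called (2.73% and 1.81% of all clusters).

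Some members lie next to each other in RefSeq's order of coding genes. F7, F10 and Proz are neighbours, and F10 was the only one called. C8b was called and its neighbour C8a was not, and C2 was called while its neighbour Cfb was not. The fibrinogen genes Fga, Fgb and Fgg also lie together. None of them was called, and their differences, given above, were similar at each day. The difference between the members of a pair was not tested.

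Whether the effect of HPNWT itself differed between days was asked with the difference of the effects. None of the 40 members was called between days 2 and 1 (0% of all clusters), between days 4 and 2 (0.00498%) or between days 4 and 1 (0.0946%) in limma. At an unadjusted p under 0.05, 2, 1 and 6 members (5%, 2.5% and 15%) passed these 3 tests, against 2196, 2390 and 2298 of all clusters (5.47%, 5.95% and 5.72%). The smallest p belonged to F10, whose effect was 0.38 higher at day 2 than at day 1 (SE 0.10, adjusted p = 0.854) and 0.42 higher at day 4 than at day 1 (adjusted p = 0.197). C2 had a wider change, 0.49 from day 1 to day 4 (SE 0.17, adjusted p = 0.585). The days at which a member was called are thus not shown to differ in effect.

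Across the 3 EGFP days, none of the 40 members was called in limma's moderated F-test (0% of all clusters), and 1 had an unadjusted p under 0.05. Across the HPNWT days F10 and Mbl2 were called (0.64% of all clusters). F10 averaged 9.36 ± 0.0722, 9.70 ± 0.0175 and 9.72 ± 0.0826 in HPNWT livers at days 1, 2 and 4, against 9.41 ± 0.0612, 9.37 ± 0.0612 and 9.35 ± 0.135 in EGFP livers (SD, n = 3 each; adjusted p = 0.0373 over the HPNWT days). This call of F10 was lost in 12 of the 18 fits that left out 1 array (adjusted p up to 0.128), and under median centring, the replicate block, testing all clusters and fitting the HPNWT arrays alone (adjusted p = 0.311, 0.0768, 0.0747 and 0.201). Mbl2 averaged 10.54 ± 0.132, 10.84 ± 0.0645 and 11.23 ± 0.0491 in HPNWT livers, against 10.95 ± 0.142, 11.19 ± 0.117 and 11.30 ± 0.0606 in EGFP livers (SD, n = 3 each; adjusted p = 0.00224 over the HPNWT days), and its call passed in each of these fits. Mbl2 was also the member with an unadjusted p under 0.05 over the EGFP days, although its adjusted p there was 1.00 in limma.

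Other genes of both pathways were read from lists drawn up for comparison. Of 33 further coagulation and fibrinolysis genes, 3, 1 and 2 were called higher at days 1, 2 and 4 and 0, 0 and 1 lower, which is 9.09%, 3.03% and 9.09% of the list against 4.59%, 5.67% and 2.21% of all clusters. Mcfd2 was higher at all 3 days, by 0.69, 0.48 and 0.52 (SE 0.11, limma adjusted p = 0.00128, 0.0140 and 0.0133). Its product and that of Lman1 form the cargo receptor that carries factors V and VIII out of the endoplasmic reticulum. Lman1 was higher by 0.30 at day 1 (SE 0.071, adjusted p = 0.0246). The other higher calls were S100a10 at day 1 (0.61) and Anxa2 at day 4 (1.29, adjusted p = 0.000412), which encode the parts of a cell-surface receptor for plasminogen, and Fgl1, a fibrinogen-like liver protein, was lower at day 4 (-0.97).

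Of 37 further complement genes, none was called higher, and 2, 1 and 1 were called lower at days 1, 2 and 4, which is 5.41%, 2.7% and 2.7% of the list. Among them were Cd59b, a pore inhibitor (-0.43), at day 1, Colec10, a collectin (-0.50), at day 2, and Colec12, a scavenger receptor of the collectin family (-0.81), at day 4. The median difference was -0.10, -0.10 and -0.05 for these complement genes and 0.05, 0.11 and 0.04 for the further coagulation genes at days 1, 2 and 4.

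The authors' deposited table of comparisons holds the same genes on another scale. Of the 40 members, 7, 13 and 10 had an FDR under 0.05 in the authors' deposited table at days 1, 2 and 4, against 5.44%, 5.98% and 2.28% of all clusters. The calls named above were all among them, and the authors' deposited table added Pros1 at day 1, Serpinc1 and Cpb2 at day 2, and F5 and Cfi at day 4. Of these added genes Pros1, a coagulation gene, was lower in HPNWT livers (-0.69), and the others were higher. Over the 6, 11 and 8 members called above, the log2 differences in the authors' deposited table were larger by a median factor of 2.06, 2.06 and 2.09, with single factors from 1.48 to 2.52. F11 stands at 4.94-, 5.0- and 5.29-fold in the authors' deposited table. Of the 34, 29 and 32 members not called above, 24, 23 and 23 had the larger difference in the authors' deposited table, and 29, 24 and 25 had the same sign in both. The fibrinogen chains Fga, Fgb and Fgg, which average 19.72 to 19.92 there, differ by 0.00 at days 2 and 4 in the authors' deposited table. The highest average of any cluster there is 19.93, so these chains stand at the top of that scale. Whether a difference could show at that level was not tested. Proz differs by -0.14 at day 1 in the authors' deposited table, against 0.02 from the array values. How those averages were computed is not given in the sources used here, and the size of each fold change therefore depends on which of the deposited values is read.

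**Figure D5:**
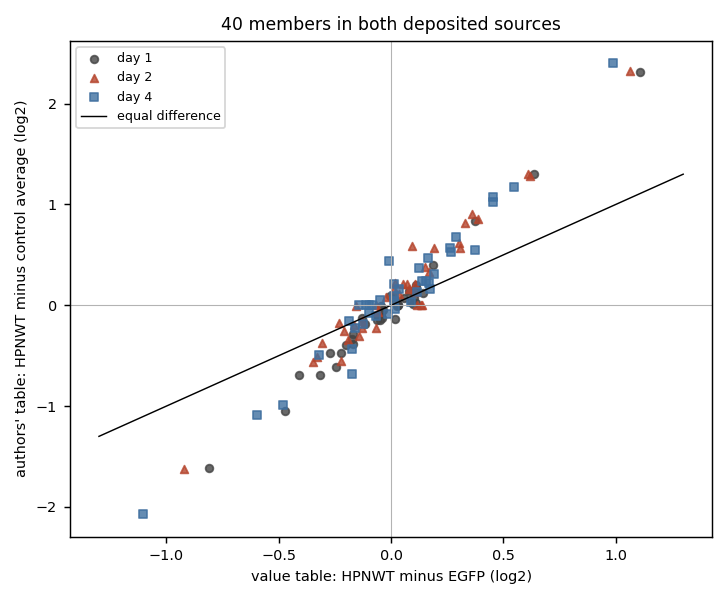
Log2 difference HPNWT minus EGFP of each member in the authors' deposited table (vertical axis) against the difference computed from the deposited array values (horizontal axis), at days 1, 2 and 4, with a line of equality. The called members lie farther from 0 on the vertical axis than on the horizontal one, with a median ratio of 2.06 to 2.09, and the fibrinogen chains lie at 0 on the vertical axis at days 2 and 4.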

How the data were processed

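RNA from 18 mouse livers was measured on Affymetrix MTA 1.0 arrays, 1 per animal, and processed by the authors with Transcriptome Analysis Console, per the labels. The deposited value table holds log2 RMA signals, per the labels. The authors' deposited comparison tables hold log2 group averages, a signed fold change, a p-value and an FDR for each cluster, per the file headers. The fold change is a signed score in the authors' table, negative where HPNWT is lower, per the file headers. Software versions and the genome build are not given in the sources used here.

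Groups came from the labels. With limma 3.58.1 in R 4.3.3, 6 group means were estimated from the deposited log2 values of 18 arrays, and p-values were adjusted by Benjamini-Hochberg over 40161 clusters with a symbol. A call is an adjusted p under 0.05. The number of arrays, 3 per group, limits the precision. Each symbol took its brightest cluster. Array values are given for called members without overlap, at most 8 per day by smallest p, and for F2, Fgb, C3 and Hc. From each comparison list at most 5 called genes per day are named. Members and lists were chosen with earlier results of these data known. Lists of acute phase genes, other secreted proteins and transcription factors are given in the closing section. Alternatives covered scaling, arrays fitted, weights, covariate, replicate block, filters and leaving out each array. The fit was tested on simulated data.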

Additional observations from a re-analysis of the deposited data

How the results depend on the processing

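The members called numbered 6, 11 and 8 at days 1, 2 and 4, and no result changed direction among called values under any alternative run. Centring arrays on their medians gave 7 at day 2, with 4.29% of all clusters then called, against 5.67%. Its day 2 split was 4 higher and 3 lower, and repeated quantile normalization gave 12 higher and 1 lower, against 8 and 3. At day 1, repeated quantile normalization gave 4 higher and 2 lower, against 3 and 3. With it 5.29% and 5.81% of all clusters were called at days 1 and 2. Fitting only the groups compared gave 3 at day 1 and 1 at day 4, with fewer arrays to estimate the spread. The share of all clusters called fell as well, to 1.8% at day 1 and 0.371% at day 4. Array quality weights gave 14, 17 and 14, with 3 higher and 11 lower at day 1, while 20.2%, 20.6% and 5.88% of all clusters were then called, against 4.59%, 5.67% and 2.21%. The coagulation gene Pros1 was among the lower ones at day 1 (-0.42, limma adjusted p = 0.0022). The weights also gave 2 between the effects at days 2 and 1, 2 between days 4 and 1, 1 over EGFP days and 3 over HPNWT days. The shares of all clusters were 0.964%, 2.34%, 0.782% and 3.46%. The negative-control covariate gave 1 at day 2, with 0.217% of all clusters called. Over HPNWT days, 1 in place of 2 was called under centring, fitting the groups compared, the replicate block and testing all clusters. The shares of all clusters tested were then 0.319%, 0.172%, 0.528% and 0.268%, against 0.64%. Quantile normalization gave 3 (0.65% of all clusters). The cause of these shifts was not tested.

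Leaving out each array in turn gave 3 to 7 calls at day 1, 5 to 11 at day 2, 6 to 9 at day 4 and 1 to 3 over HPNWT days, with 0 for the other comparisons. Without HPNWT day 1 replicate 2, the day 1 count was 3, with 2.14% of all clusters called. At day 2, leaving out HPNWT replicate 1, 2 or 3 gave 7, 5 and 8, and leaving out any EGFP array of that day gave 6. Over all clusters 3.41%, 2.32% and 3.31% were called without these HPNWT arrays. The shares were 4.27%, 1.97% and 2.56% without EGFP replicate 1, 2 or 3. With the replicate block the counts were 6, 10 and 8 (4.08%, 5.42% and 1.91% of all clusters), and Kng1 at day 2 was lost (adjusted p = 0.0579). Deviations of same-numbered arrays correlated between -0.25 and 0.11, so little shared variation was seen between them. The labels do not say whether the numbers pair the animals.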

Other observations

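Other secreted and acute phase genes of the liver were read beside the clotting and complement genes. Of 24 acute phase genes, 2, 1 and 0 were called higher and 1, 4 and 6 lower at days 1, 2 and 4 in HPNWT livers. These are 12.5%, 20.8% and 25% of the list. Over all clusters 4.59%, 5.67% and 2.21% were called at days 1, 2 and 4. Among clusters with a mean above 9 the shares were 11.2%, 20.4% and 6.26%. Lbp, which binds bacterial lipopolysaccharide, was called lower at each day, with log2 differences of -1.05 at day 2 and -1.35 at day 4. Saa1 and Saa2, the serum amyloid A genes, were lower at day 4 (-3.58 and -3.77, limma adjusted p = 7.6e-05 and 0.000147). Apcs, serum amyloid P, was higher by 1.00 at day 1 and 1.31 at day 2. Of 23 other secreted hepatocyte proteins, 3, 3 and 2 were called higher and 1, 1 and 0 lower (17.4%, 17.4% and 8.7% of the list). Apoc3, an inhibitor of lipoprotein lipase, was higher by 0.48 at day 4, and Serpina6, the corticosteroid carrier, was lower at day 1 (-0.85). Of 18 liver transcription factors, Foxa3, a forkhead factor of hepatocytes, was the only one called (5.56% of the list at each day). It was higher by 1.17, 1.10 and 0.66 at days 1, 2 and 4 (limma adjusted p = 0.00018, 0.00032 and 0.0185).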
